A study of Homo sapiens with 4 samples.

Results

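Recurrent contacts between chromosomes were read from SMC1 ChIA-PET tables of Kelly cells, a neuroblastoma line. An anchor pair was taken as recurrent when its anchors lay on different chromosomes and it held at least 3 paired-end tags (PETs) summed over the shLUC and the shBORIS table. The rule kept 66 of 572597 pairs between chromosomes, out of 720049 pairs in all. Each member was then placed by the pair of 1 Mb bins that held its anchor midpoints. A bin pair with at least 5 distinct anchor pairs was termed dense and one with 1 or 2 isolated. The 33 dense members lay in 13 bin pairs and the 29 isolated members in 28. The other 4 members lay in bin pairs with 3 distinct anchor pairs and were termed intermediate. The members were thus chosen by their summed PETs and sorted by the number of distinct pairs, and both are given as a description without a test.

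All 4 libraries came from Kelly cells that tolerate TAE684, an inhibitor of the kinase ALK, and were kept in it at 1 µM. Each of the 2 groups had 2 libraries, infected for 24 h in the presence of polybrene at 8 µg/ml and selected with puromycin for 48 h. The shBORIS group received a short hairpin construct named for BORIS (CTCFL), a paralog of the insulator protein CTCF, and the shLUC group a control construct. The level of BORIS was not analysed here, the resistant cells are a single line, and the labels do not say whether the libraries of a group came from separate cultures. The authors deposited 1 table per group, so each value below is that of a pool of 2 libraries and carries no replicate error.

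SMC1 is a subunit of cohesin, a ring-shaped complex that holds chromatin fibres together and forms loops mainly within a chromosome. ChIA-PET ligates DNA fragments held in one immunoprecipitated complex and reads both ends of the product. Ligation between fragments of unrelated complexes also occurs, and such products join chromosomes at random, in proportion to how often each anchor was recovered.

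In all, 434975 PETs were listed for shLUC and 449979 for shBORIS. Of these, 288835 and 286938 joined different chromosomes, 65.1% of all PETs. Among the pairs between chromosomes, 569647 (99.5%) held 1 PET, 2884 held 2 and 66 held 3 or more. The members together held 358 PETs, 0.0622% of those between chromosomes. Just inside the threshold, 37 members held exactly 3 PETs, while 17 held at least 6, 10 held at least 10 and the maximum was 20. Intervals on PET counts cover counting error only. PETs may include PCR copies of the same molecule and so need not be independent, which the intervals do not cover.

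The plot of members by table sets the PETs of each pair in shLUC against those in shBORIS. Dense members held 91 PETs in shLUC and 103 in shBORIS, intermediate members 15 and 16, and isolated members 57 and 76. Dense members were spread along the diagonal, with 26 of 33 listed in both tables. Most isolated members lay on an axis, since 13 were listed in shBORIS only and 8 in shLUC only.

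**Figure D1:**
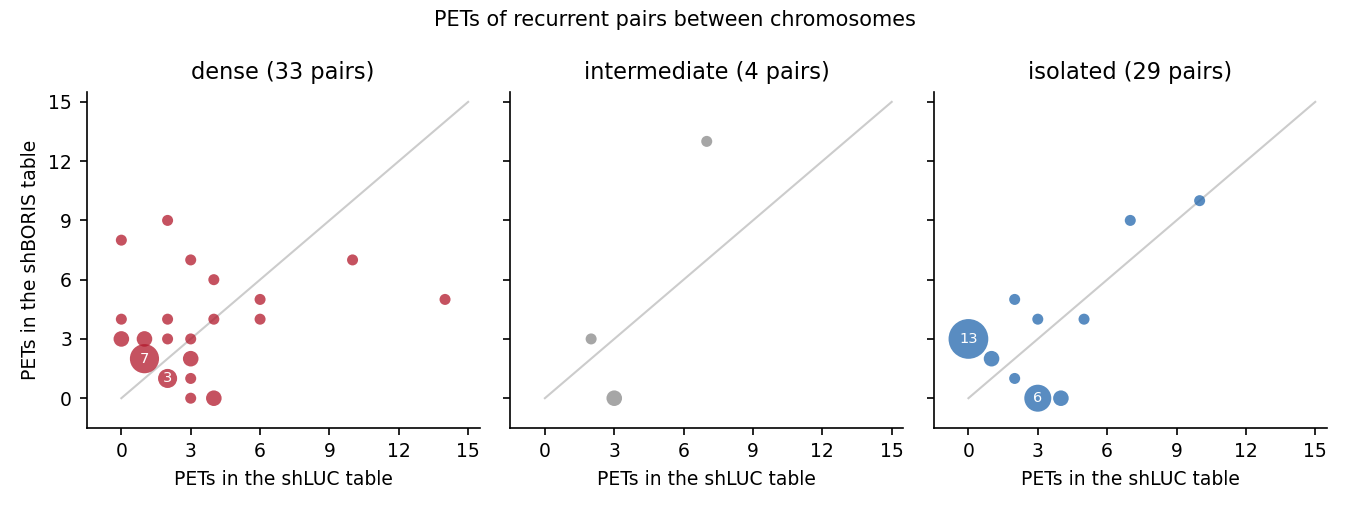
PETs of each recurrent pair in the shLUC table (horizontal) and the shBORIS table (vertical), for 33 dense, 4 intermediate and 29 isolated pairs. The area of a point grows with the number of pairs at that position, which is printed where it is above 2, and the grey line marks equal counts; 13 isolated pairs sit at 0 and 3 PETs.

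The largest linked group of members joined unlocalized and unplaced contigs of hg19, sequences to which the assembly gives no position on a chromosome. A contig counts as a chromosome of its own here because the files name it as one, and each fell into a single bin. The contigs chr17_gl000205_random, chr7_gl000195_random, chrUn_gl000219, chrUn_gl000220 and chr11_gl000202_random, carried all 17 dense members that touch a contig. Contigs held 41 of 39507 anchors (0.104%) and 0.208% of the PET ends between chromosomes, but 19 of the 66 members. Whether the listed positions of these contigs lie apart in Kelly cells cannot be told from the tables.

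Between chr7_gl000195_random and chrUn_gl000220 25 PETs were listed in shLUC and 19 in shBORIS, on 7 distinct pairs of which 5 were members. Its strongest pair, chr7_gl000195_random:1-1715 with chrUn_gl000220:91800-94536, held 14 and 5 PETs. The first of these anchors is also the first of its contig. Coverage of the anchors predicted 0.189 PETs for the bin pair, so the 44 observed were 233 times the expected value.

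Between chr17_gl000205_random and chr7_gl000195_random, 19 PETs were listed in shLUC and 21 in shBORIS, 188 times the expected 0.213. Here 4 of the 7 distinct pairs were members. The strongest joined chr17_gl000205_random:83811-90476 with chr7_gl000195_random:29581-33921 and held 10 and 7 PETs, and a second, ending at chr7_gl000195_random:120821-121740, held 6 and 4. Both were slightly higher in shLUC. The contigs chr17_gl000205_random and chrUn_gl000219 shared 8 PETs in shLUC and 2 in shBORIS on 7 distinct pairs. The only member among these joined the same anchor, chr17_gl000205_random:83811-90476, to chrUn_gl000219:40012-40882 and held 2 and 1 PETs.

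Together these contigs formed a set of 11 members on 9 anchors with 52 PETs in shLUC and 48 in shBORIS. The anchor chr17_gl000205_random:83811-90476 took part in 6 members, more than any other anchor. Those members held 59 of its 346 PETs to other chromosomes (17.1%), and it had only 2 PETs within its own contig. One of the 6 was the strongest intermediate member, with chrUn_gl000220:91800-94536, at 7 PETs in shLUC and 13 in shBORIS. That bin pair held 3 distinct pairs and was therefore not dense, although it stood at 140 times its expected PETs.

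A second group joined chromosome 11 to chr11_gl000202_random, a contig whose name assigns it to chromosome 11 without a position there. By the rule these pairs count as between chromosomes only because the contig has a name of its own. Of the 205 PETs of this contig to other sequences, 82 (40.0%) went to chromosome 11, which holds 4.74% of all such PET ends. The bins at 69 and 70 Mb of chromosome 11 held 26 and 40 of these 82 PETs, and the other 14 chromosome 11 bins with any PET held 1 or 2 each.

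In the bin at 70 Mb, shLUC held 12 PETs and shBORIS 28, on 9 distinct pairs of which 5 were members. This bin pair had the highest ratio to the expected PETs of all 5888 dense bin pairs, 338. The strongest pair, chr11:70037090-70038546 with chr11_gl000202_random:15598-17358, held 2 PETs in shLUC and 9 in shBORIS. The next, from chr11:70041699-70043023 to the same contig anchor, held 0 and 8. Not every pair leaned to shBORIS, as chr11:70037090-70038546 with chr11_gl000202_random:12204-13692 held 4 and 4. In the bin at 69 Mb, shLUC held 9 PETs and shBORIS 17, spread over 19 distinct pairs. Only 2 of these were members, both from chr11:69702784-69704382, with 1 and 2 PETs to chr11_gl000202_random:7076-8088 and 0 and 3 to chr11_gl000202_random:15598-17358.

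Among placed chromosomes, the bin pair with the most PETs joined chromosome 2 at 29 Mb to chromosome 5 at 1 Mb. It held 33 PETs in shLUC and 24 in shBORIS, against 1.47 expected for both together, a ratio of 38.9. These 57 PETs were spread over 40 distinct pairs, so only 3 pairs were members. They were chr2:29872478-29875358 with chr5:1284340-1285899 (4 and 0 PETs), chr2:29558526-29560636 with the same chromosome 5 anchor (2 and 1), and chr2:29664041-29664761 with chr5:1331162-1334601 (1 and 2).

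On chromosome 2, 26 of the 46 anchors in the bin had PETs to the chromosome 5 bin, over 751 kb from chr2:29178862 to 29930097. On chromosome 5, 13 of 32 anchors did, over 479 kb. The PETs were spread along chromosome 2, where no anchor had more than 6, and concentrated on chromosome 5. There, chr5:1284340-1285899 held 12 PETs in shLUC and 5 in shBORIS, and chr5:1331162-1334601 held 5 and 10. These 2 anchors held 17 and 15 of the 57 PETs and leaned to different tables, as the plot of PETs per anchor shows.

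**Figure D2:**
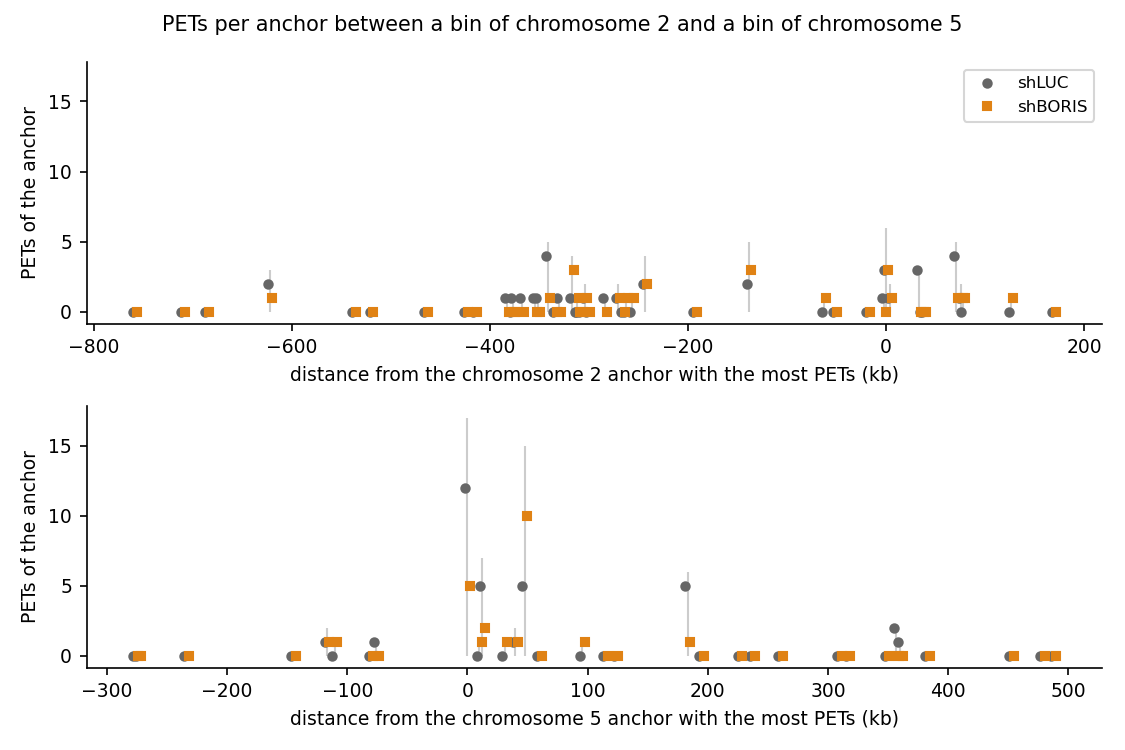
PETs of each anchor between the chromosome 2 bin (upper panel) and the chromosome 5 bin (lower panel), against the distance in kb from the anchor with the most PETs; circles are shLUC, squares shBORIS, and grey lines reach to the sum. PETs spread over 26 chromosome 2 anchors with at most 6 each, while the chromosome 5 anchor at 0 kb held 17.

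The signal fell off at the next bins. With the chromosome 5 bin fixed, the bin above on chromosome 2 held 4 PETs in shLUC and 3 in shBORIS, 8.23 times the expected value, and each of the other 9 bins within 5 Mb held 0 to 2 PETs. With the chromosome 2 bin fixed, the bins below and above on chromosome 5 held 3 and 0 PETs.

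Chromosome 11 at 114 Mb and chromosome 17 at 39 Mb shared 12 PETs in shLUC and 11 in shBORIS on 13 distinct pairs, 37.0 times the expected value. The anchor chr11:114644839-114646363 carried 17 of these 23 PETs to 8 partners within the chromosome 17 bin. It formed both members, with chr17:39478196-39479401 (3 and 2 PETs) and with chr17:39818193-39819959 (4 and 0). Bins on either side within 5 Mb held 0 to 2 PETs on both chromosomes.

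Chromosome 1 at 149 Mb and chromosome 2 at 91 Mb shared 10 PETs in shLUC and 11 in shBORIS, 59.6 times the expected value, with 3 members among 6 distinct pairs. The strongest, chr1:149222131-149225439 with chr2:91814441-91819651, held 6 and 5 PETs. The tables were close for each of these counts. The chromosome 1 bin below held only 2 anchors and shared 1 and 3 PETs with the same chromosome 2 bin, 143 times the expected 0.0279.

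Near the starts of chromosomes 11 and 17, shLUC held 7 PETs and shBORIS 11 on 7 distinct pairs, 37.6 times the expected value. The only member there joined chr11:189251-190850, the first anchor of chromosome 11, to chr17:158530-160298, and held 4 and 6 of these PETs. The chromosome 11 anchor carried 16 of the 18 PETs.

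Chromosome 10 at 42 Mb and chromosome 3 at 196 Mb shared 13 PETs in shLUC and 16 in shBORIS on 12 distinct pairs. With 2.91 PETs expected the ratio was 9.98, lower than for the bin pairs above. A single chromosome 3 anchor, chr3:196625176-196626270, carried 23 of the 29 PETs and formed all 4 members with different chromosome 10 anchors. The strongest, with chr10:42596575-42598680, held 3 and 3 PETs. One of the 4, with chr10:42383016-42386173, held 0 and 4 PETs. That chromosome 10 anchor had no PET of any kind in shLUC. In shBORIS it had 475 PETs to other chromosomes and 126 within its own. The 0 is thus that of the whole anchor and not of this pair alone.

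**Figure D3:**
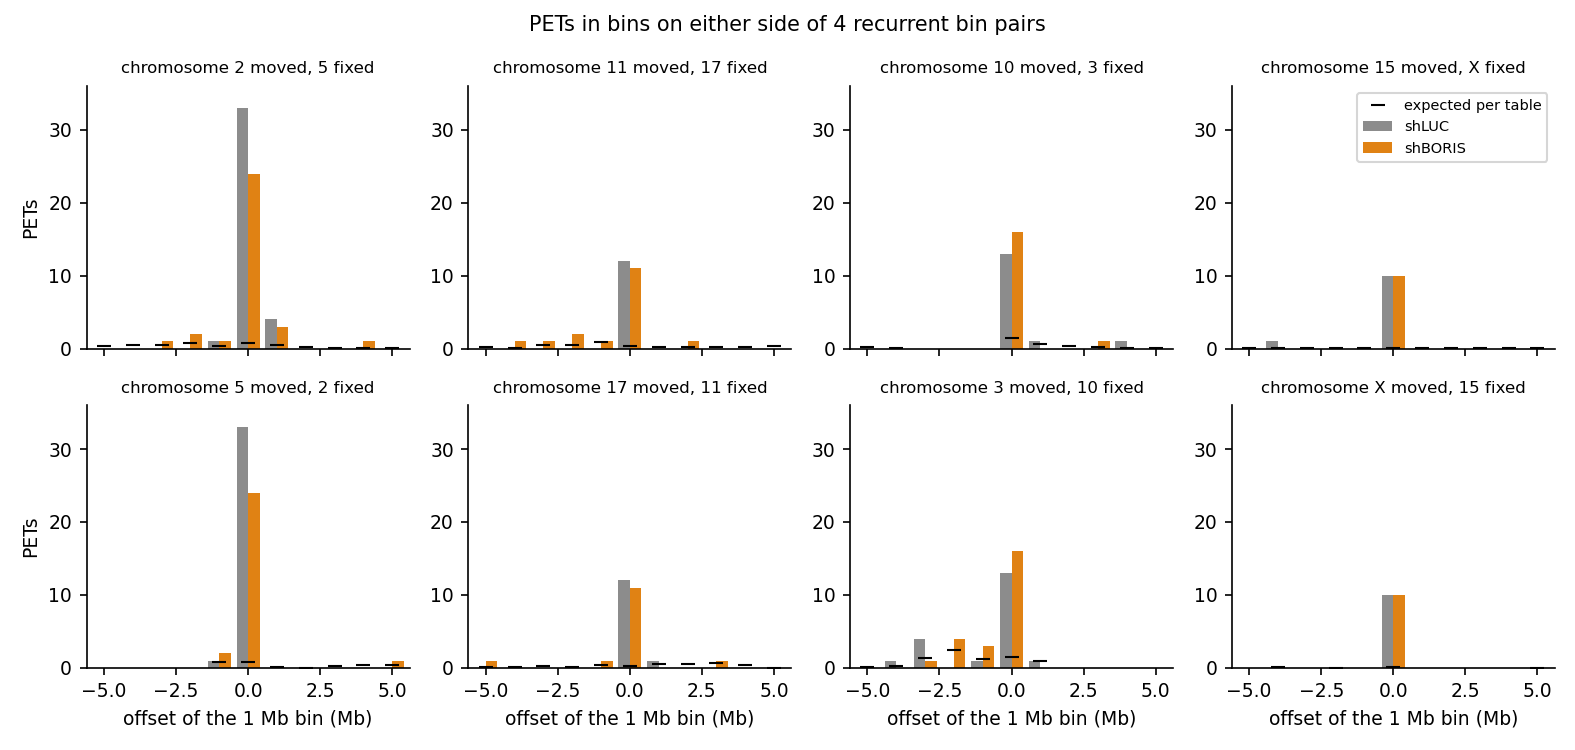
PETs in 1 Mb bins at 0 to 5 Mb on either side of 4 recurrent bin pairs, with the other chromosome's bin fixed; grey bars are shLUC, orange bars shBORIS, and dashes mark the expected PETs per table. The central bars reach 33 and 24 PETs for chromosomes 2 and 5 and 10 and 10 for chromosomes 15 and X, and most neighbouring bins hold 0 to 2.

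The last 3 dense bin pairs with a member stood close to the bulk of dense bin pairs. Chromosome 10 at 42 Mb and chromosome 19 at 27 Mb shared 6 PETs in shLUC and 2 in shBORIS on 5 distinct pairs, just at the threshold, 4.30 times the expected value. Their member, chr10:42398183-42399902 with chr19:27731805-27734970, held 3 and 0 PETs. Its chromosome 19 anchor had 615 PETs to other chromosomes, the most of all anchors, and followed a stretch of 3.51 Mb without anchors. The longest such stretch of chromosome 10, 4.08 Mb, ended at chr10:42379689, in the bin of this member and of those with chromosome 3.

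Chromosome 20 at 62 Mb and chromosome 7 at 142 Mb shared 3 and 5 PETs, 1.26 times the expected value, and their member (chr20:62579918-62582124 with chr7:142490411-142492044) held 0 and 3. Chromosome 17 at 71 Mb and chromosome 9 at 136 Mb shared 15 and 17 PETs on 30 distinct pairs where 30.8 PETs were expected, a ratio of 1.04. These bins hold 131 and 114 anchors, and the member, chr17:71250643-71254118 with chr9:136657500-136659888, held 1 and 2 PETs. The PETs of this last bin pair were thus close to the number expected from anchor coverage. An expected number of distinct pairs was not computed.

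Of 420779 bin pairs with PETs, 5888 (1.40%) were dense and 13 of those (0.221%) held a member. The ratio of observed to expected PETs had a median of 1.79 over all dense bin pairs, with 0.870 at the 5th and 4.78 at the 95th percentile. The 13 with a member had a median of 38.9, and 9 of them exceeded 30 and held ranks 1 to 9. The highest ratio of a dense bin pair without a member was 21.4. Since PETs chose the members, these ratios describe the choice. Over the 1925 bin pairs with at least 5 PETs expected, the median ratio was 0.971 and the maximum 2.54. Expected totals were scaled to the observed ones, so a median near equality is no separate check. Most bin pairs with a member had fewer than 5 PETs expected and lay outside this range. Just outside the density threshold, none of the 6568 bin pairs with exactly 4 distinct pairs held a member, 4 with exactly 3 did, and 1 with exactly 5 did.

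**Figure D4:**
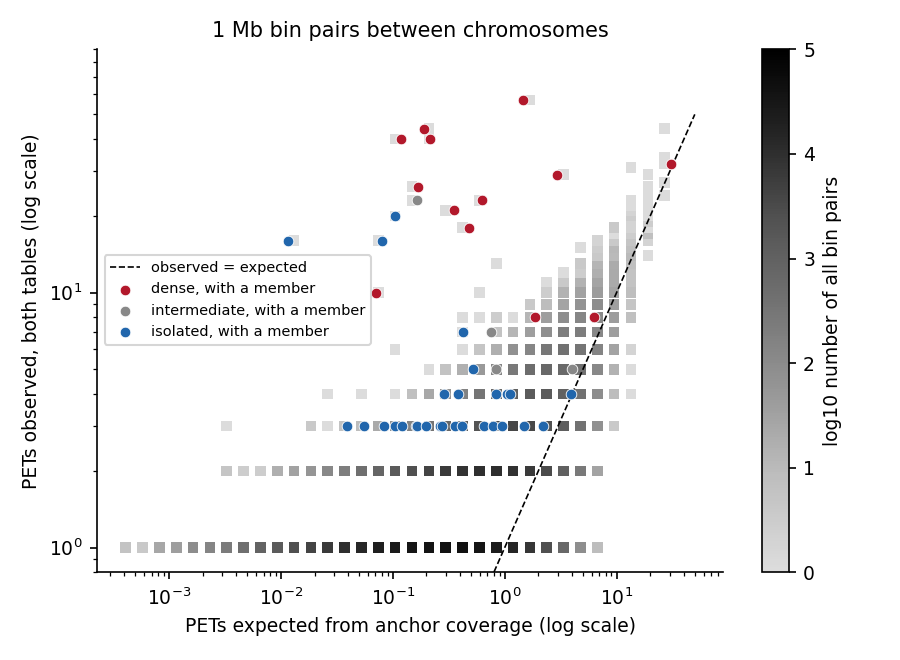
PETs observed in each 1 Mb bin pair between chromosomes against those expected from the coverage of its anchors, both on log scales; grey squares give the number of all bin pairs, coloured points are bin pairs with a recurrent pair, and the dashed line marks equality. 9 dense points lie more than 30 times above expectation, while the dense point at 32 observed and 30.8 expected lies on the line.

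The other 3 intermediate members held few PETs. The pair chr10:43366137-43367601 with chr2:91759401-91764961 held 2 PETs in shLUC and 3 in shBORIS, and its chromosome 2 anchor also formed a dense member with chromosome 1. The remaining pair of intermediate members, chr1:211870256-211872788 with chr10:99468658-99470233 and chr5:140903521-140905498 with chr9:136397398-136401503, each held 3 PETs in shLUC and 0 in shBORIS.

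Isolated members were led by 5 pairs that held more than 4 PETs, and all 5 were listed in both tables. The pair chr15:68131973-68133117 with chrX:77358894-77360211 held 10 PETs in shLUC and 10 in shBORIS, the same sum as the highest of any member. It was the only anchor pair of its bin pair, although 24 anchors lay in the chromosome 15 bin and 3 in that of X, and 0.106 PETs were expected. The 20 PETs made up 30.3% of the PETs of the chromosome 15 anchor to other chromosomes and 16.3% of those of the X anchor. Within 5 Mb on either side, 1 further PET was found with chromosome 15 moved and none with X moved. Only the X bins at offsets of -4, -2 and 5 Mb held anchors, with at most 0.134 PETs expected in each, so finding none says little.

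A contig pair, chrUn_gl000231:10992-12327 with chrUn_gl000234:35623-37366, held 7 and 9 PETs. Each contig has 1 anchor, so the bin pair could hold no more than 1 distinct pair. It had 0.0117 PETs expected.

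The anchor chr10:134035991-134037591 formed a pair of isolated members with chromosome 2. It was joined to chr2:166554775-166555828 by 5 PETs in shLUC and 4 in shBORIS, and to chr2:166730531-166731708 by 3 and 4. These PETs made up 29.0% and 29.2% of the PETs of the respective chromosome 2 anchors to other chromosomes. The bin pair held 8 and 8 PETs against 0.0798 expected, and no other anchor of its 20 on chromosome 10 took part.

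The first anchors of chromosomes 10 and 18, chr10:119610-120691 and chr18:11048-12418, were joined by 2 PETs in shLUC and 5 in shBORIS, 16.5 times the 0.425 expected for the bin pair. With the pair at the starts of chromosomes 11 and 17, this made 2 members with both anchors within 1 Mb of the first or last anchor of their chromosomes. Such positions held 2.81% of PET ends between chromosomes. They held 3 ends of dense members (4.55%) and 3 of isolated members (5.17%), too few to compare with that share.

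The other 24 isolated members held 3 or 4 PETs, and 21 of them were listed in 1 table only. A sum of 4 was reached by chr12:70293923-70295544 with chr17:73265756-73268223 and by chr1:31273904-31275581 with chr2:75102820-75104320, each with 4 PETs in shLUC and 0 in shBORIS. Of the pairs with 3 PETs, those least expected from coverage were chr11:94042604-94043979 with chr22:26299055-26299842, chr10:6127992-6129060 with chr11:107461436-107462317, and chr14:75703812-75704869 with chr4:70183383-70184342. All 3 were listed with 0 PETs in shLUC and 3 in shBORIS. The median ratio to expected PETs over the 28 isolated bin pairs was 11.1, and in 9 of them it was under 5.

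Other PETs near isolated members were also counted. For 18 of 29, no other PET joined anchors within 500 kb of both ends. Isolated members were sorted by having few distinct pairs in their bin pair, so sparse surroundings partly follow from the rule. The counts are therefore given as a description. Summed over all 29, 27 other PETs were found and 19.6 were expected, and 16 of the 27 were those of the pair of members that share the chromosome 10 anchor.

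By chromosome, 14 members had an end on chromosome 2, 14 on chromosome 11 and 12 on chromosome 10, while chromosome 1, with the most PET ends between chromosomes (11.8%), had 6. Chromosome 11 owed 7 of its 14 to the contig chr11_gl000202_random. Dense members involved chromosomes 1, 2, 3, 5, 7, 9, 10, 11, 17, 19 and 20 beside contigs. Isolated members were spread more widely, with at most 7 on a chromosome (chromosome 2), and chromosome 13 had no member.

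Members had 102 distinct anchors and fell into 40 linked sets, 32 of which were a single pair. Anchors of dense members had a median of 102 PETs to other chromosomes, those of isolated members 44 and all anchors 22. Median widths were 1769, 1372 and 1172 bp, and median PETs within the chromosome 19, 13 and 9. Anchors of members were thus wider and more covered than the typical anchor, and those of dense members more so than those of isolated ones. The rule chose pairs by PETs between chromosomes, and the anchor counts include those of the members, so higher coverage partly follows from the choice. From this coverage at most 0.0801 PETs were expected for any single member. Wide, highly covered anchors included chr17_gl000205_random:83811-90476 (346 PETs) and chr2:91814441-91819651 (291), whereas chr2:29664041-29664761, a dense member's anchor, had 12.

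Agreement of the tables was read at equal PET sums, since the sum limits how often both tables can list a pair. Of the dense members 26 of 33 were listed in both tables (78.8%, exact 95% interval 61.1 to 91.0%), and 8 of 29 isolated members (27.6%, 12.7 to 47.2%). Pairs within chromosomes at the same sums were listed in both in 85.4% and 78.1% of cases. At exactly 3 PETs, 10 of 13 dense members (76.9%, 46.2 to 95%) and 3 of 22 isolated members (13.6%, 2.91 to 34.9%) were in both, against 72.8% (71.9 to 73.7%) of 9109 pairs within chromosomes. The interval of isolated members lay below that of dense members and of pairs within chromosomes, and that of dense members included the latter. Members that share an anchor are not independent, which these intervals do not cover. Without contigs, 68.8% of 16 dense and 25% of 28 isolated members were in both tables.

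The pairs just outside the threshold, with 2 PETs, showed the same order. In dense bin pairs 22.1% of 271 (17.3 to 27.6%) were listed in both tables, in isolated ones 9.54% of 2149 (8.33 to 10.9%). Pairs within chromosomes reached 47.4%, and those spanning over 2 Mb 17.8% of 259. Pairs with 2 PETs were no members, although they count towards the density of a bin pair.

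**Figure D5:**
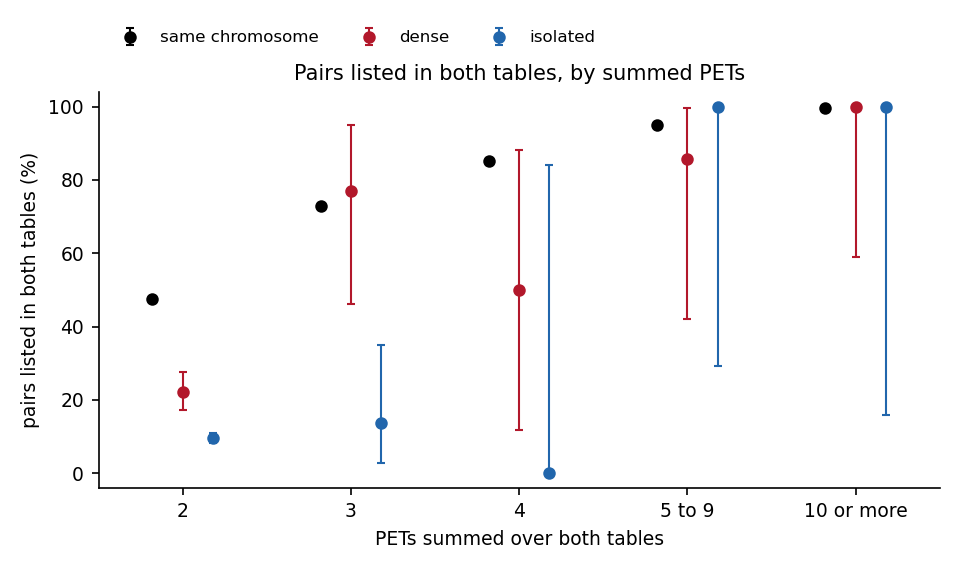
Percent of pairs listed in both tables by their PETs summed over the tables, for pairs within chromosomes (black), pairs in dense bin pairs (red) and pairs in isolated bin pairs (blue); bars are exact 95% intervals and cover counting error only. At 3 PETs dense pairs reach 76.9% and isolated pairs 13.6%, while from 5 PETs upward all isolated pairs are in both.

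Pairs were also chosen in one table and read in the other. In shLUC alone 29 pairs held at least 3 PETs, and 16 of them had a PET in shBORIS. Of these 29, 7 of the 9 that were dense in shLUC (77.8%, 40.0 to 97.2%), 4 of the 5 with 3 or 4 distinct pairs there (80.0%, 28.4 to 99.5%) and 5 of the 15 with 1 or 2 (33.3%, 11.8 to 61.6%) recurred, and these intervals overlap. In shBORIS alone 37 pairs held at least 3 PETs and 20 had a PET in shLUC, among them 13 of the 16 dense in shBORIS (81.2%, 54.4 to 96.0%), 2 of the 3 with 3 or 4 distinct pairs (66.7%, 9.43 to 99.2%) and 5 of the 18 with 1 or 2 (27.8%, 9.69 to 53.5%). Here the interval with 1 or 2 distinct pairs ended just below that of dense pairs. Pairs within chromosomes with exactly 3 PETs had a PET in the other table in 77.5% of cases from shLUC and 71.9% from shBORIS. The pairs between chromosomes held 3 or more PETs in the choosing table, so these shares are not at equal PET counts.

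Density itself recurred as well. Of 862 bin pairs dense in shLUC alone, 206 (23.9%, 21.1 to 26.9%) were dense in shBORIS. There, 0.255% of all bin pairs with a PET in either table were dense. In reverse, 206 of 1073 (19.2%) were dense in shLUC, where 0.205% of the same bin pairs were. The share of anchor coverage in this recurrence was not tested. Of the 13 dense bin pairs with a member, 8 were dense in shLUC alone, 10 in shBORIS alone and 7 in each, and all 13 had PETs in both.

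In the comparison of shBORIS with shLUC, dense members held 1.14 times as many PETs in shBORIS after scaling to all PETs between chromosomes (exact 95% interval 0.851 to 1.53). Isolated members held 1.34 times as many (0.940 to 1.93) and all members 1.20 times (0.973 to 1.49). All 3 intervals included 1. Of the 91 and 103 PETs of dense members, 9 in shLUC and 30 in shBORIS lay on the 7 members that join chromosome 11 to chr11_gl000202_random. The largest linked set, of contigs, held 52 and 48. The ratio of dense members thus leans on that 1 contig, and a ratio without it was not computed.

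Pair by pair, none of the 10 members with at least 10 PETs passed a two-sided Fisher's exact test with Benjamini-Hochberg adjustment at 0.05, where 2 of 3961 pairs of both kinds (0.0505%) did. A negative binomial test with a dispersion of 0.1 called 0 members too. At an unadjusted p under 0.05 the Fisher test found 1 of the 10 members and 226 of the 3961 pairs (5.71%), and the negative binomial test 0 members and 60 pairs (1.51%). That member was chr11:70037090-70038546 with chr11_gl000202_random:15598-17358, at 2 and 9 PETs (ratio 4.53, 0.938 to 43.1, p = 0.0380, adjusted p = 0.815 by Fisher's exact test). The most even was the pair of chromosomes 15 and X, with a ratio of 1.01 (0.376 to 2.70). The most unequal in the other direction, chr7_gl000195_random:1-1715 with chrUn_gl000220:91800-94536 at 14 and 5 PETs, had a ratio of 0.360 (0.101 to 1.06, adjusted p = 0.822 by Fisher's exact test).

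By bin pair, 0 of 15 with a member passed Fisher's exact test, as did 0 of 414 bin pairs tested (0.0%). At an unadjusted p under 0.05 it found 19 of the 414 (4.59%), among them 1 with a member, and the negative binomial test found 6 (1.45%), none of them with a member. The 1 was chromosome 11 at 70 Mb with chr11_gl000202_random, whose 12 and 28 PETs gave a ratio of 2.35 (1.16 to 5.07, p = 0.0113, adjusted p = 0.749 by Fisher's exact test). For the chromosome 2 and 5 bin pair the ratio was 0.732 (0.414 to 1.28).

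Counts limited these tests. A pair with 3 PETs could not go below p = 0.124 in Fisher's exact test, and with all 66 members entered in Fisher's exact test the smallest adjusted p was 0.499. The 21 isolated members with 3 or 4 PETs in 1 table only are therefore not shown to differ between groups. With 10 PETs the smallest possible p was 0.000945. The tests compare 2 pools of libraries and not the conditions.

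The authors' deposited tables give each listed pair a Bayes probability. It was at least 0.9 for 14 members in shLUC and 17 in shBORIS, 10 of them in both, per the authors' deposited tables. No pair between chromosomes outside the members reached 0.9 in the authors' deposited tables. By the rule those pairs hold fewer PETs than any member, so this is no separate check on the members. Of the 21 members at 0.9 or more in either of the authors' deposited tables, 13 were dense, 7 isolated and 1 intermediate. The chromosome 15 and X pair was at 1.0 in both of the authors' deposited tables, and the strongest chromosome 2 and 5 pair at 0.912 in the authors' deposited shLUC table. How the score was computed is not given in the sources used here, and no test was drawn from it.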

How the data were processed

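SMC1 ChIA-PET was measured in 4 libraries, 2 infected with shBORIS and 2 with shLUC. Per the submitters' processing notes, tools included cutadapt 1.8 and Bowtie, and the build was hg19. How anchors were defined and pairs scored is not given in the sources used here. Each group has a single table deposited by the authors, which both of its libraries name, and it was read as their pool. The PET count of each anchor pair, named per the file headers, was used as an unnormalized count. The authors' hypergeometric p-value, named per the file headers, entered no call. The Bayes probability is a deposited fraction between 0 and 1, per the file headers. As the shBORIS file lacks a header line, its columns were taken to follow those of shLUC. Pairs without a PET are not listed.

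Starts were counted from 1. Bins of 1 Mb were assigned by anchor midpoint. Expected PETs are the product of the PETs of both anchors to other chromosomes, scaled so that expected and observed totals over all pairs between chromosomes are equal. Two-sided Fisher's exact tests set the PETs of a pair or bin pair with at least 10 PETs against the other PETs of its kind, within or between chromosomes, with Benjamini-Hochberg adjustment over all those tested and a threshold of 0.05. A negative binomial test with an assumed dispersion of 0.1 was the alternative. Shares and ratios carry exact 95% Clopper-Pearson intervals. Depth was 434975 PETs for shLUC and 449979 for shBORIS. Scripts in Python 3.11.15 with pandas 2.3.3, numpy 2.4.6 and scipy 1.17.1 were tested on simulated data.

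The members and lists were chosen with earlier results of these data known. Regions were named by rule: each dense bin pair with a member and its strongest pair, the 10 isolated members with the most PETs (ties by ratio to expected PETs), and regions at the threshold. Other pairs and anchors named within those bin pairs, the intermediate members and the pairs quoted as most even or unequal were chosen after their values were seen. Alternatives varied bins, density and PET minimums, coverage, filter, scaling and test. Leaving out contigs was added after seeing the data. Sequences and genes at the anchors were not analysed here, since the reference tables used are of GRCh38.p14.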

Additional observations from a re-analysis of the deposited data

How the results depend on the processing

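Of 76 alternatives over 14 results, 55 left the value within its tolerance, 21 moved it and 0 reversed it. With 2 Mb bins, 20 dense bin pairs held a member instead of 13. Requiring at least 8 distinct pairs left 17 dense members in 6 bin pairs. Requiring at least 4 PETs left 29 members (20 dense, 7 isolated, 8 dense bin pairs), and at least 5 PETs left 21 (14, 5 and 7). Without contigs, a choice made after seeing the data, 16 dense members remained in 8 bin pairs, and the median ratio of observed to expected PETs in dense bin pairs with a member was 23.6 instead of 38.9. With PETs within chromosomes as coverage, that median was 97.1, and the median of isolated bin pairs was 17.2 instead of 11.1. Bin pairs chosen in shBORIS were dense in shLUC in 19.2% of cases, in 19.9% with at least 3 and in 19.5% with at least 8 distinct pairs, against 23.9% chosen in shLUC. The 2 pairs called among all pairs became 0 with the negative binomial test and 0 without the chromosome 10 anchor that had no PET in shLUC. No member was called under any alternative run, and the smallest adjusted p of a member pair ranged from 0.499 to 1.0 over them. No bin pair was called either, and the smallest adjusted p among all of them ranged from 0.244 to 1.0. No paired analysis was possible because both libraries of a group are summed in its table, and for the same reason no library could be left out. Of the 29 isolated members, 22 held 3 PETs, a sum at which Fisher's exact test could not go below p = 0.124.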
